A study of Mus musculus with 2 samples.

Results

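The genes of the constitutive proteasome were described in cells of RAW 264.7, a macrophage-like cell line of the mouse from which osteoclast-like cells can be grown, on 1 array of control cells and 1 array of cells from a rotary cell culture system (RCCS) used to model microgravity. Members were all non-control probes whose gene name in the scanner files begins with Psm, a letter from a to g and a number. The interferon-inducible genes Psmb8, Psmb9, Psmb10 and Psme1 were left out. The rule took 40 gene names with 62 probes, of 27960 names with 41171 probes in all. It used names and no measured value. All 40 members were well above background on both arrays, through 59 of their probes, against 15632 of all gene names.

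The series addressed how modelled microgravity alters gene expression on the way to osteoclasts. The RCCS cells spent 24 h in the rotating vessel in DMEM medium with 10% fetal bovine serum and received the osteoclast-inducing cytokine RANKL at 80 ng/ml for 24 h, while control cells stayed on the ground. Both samples carry 1 shared protocol, which does not settle whether the control cells received RANKL, so each difference is given as RCCS against control and nothing more. RAW 264.7 is 1 transformed line and stands here for osteoclast precursors. All 8 macrophage markers examined, among them Cd68, Csf1r and Lyz2 (named Lyzs in the files), were well above background on both arrays. Their summed signal, before any scaling of the arrays, was 587747 for control against 746980 for RCCS. Lyz2 alone held 339474 and 406935 of these sums. The 75th percentile of all probes was itself higher for RCCS, at 966 against 849. Of the 16 markers of T, B, fibroblast, epithelial, endothelial and erythroid cells, none had a processed signal above 165 on either array. Still, 6 of these 16 were well above background on both. The fibroblast marker Dcn went from 9.24 to 114.5, and the epithelial marker Epcam (named Tacstd1) from 69.6 to 27.2. Of 3 fibroblast markers, 1 was above background for control and 3 for RCCS. Of 3 epithelial markers, 2 were above it for control and 1 for RCCS. The macrophage markers Itgam, from 1125 to 5116, and Fcgr3, from 2256 to 13885, were more than 2-fold higher for RCCS, and the part of such differences in the results was not tested.

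The proteasome is the large protease that destroys proteins tagged with ubiquitin. Its 20S core is a barrel of alpha rings, which gate the entrance, and beta rings, of which the subunits encoded by Psmb5, Psmb6 and Psmb7 cut the substrate. The 19S regulatory particle caps the barrel: a ring of ATPases (Psmc genes) unfolds the substrate, and a lid of Psmd subunits removes the ubiquitin chain. Other caps, the activators PA28 and PA200, open the barrel without ubiquitin, and under interferon inducible forms take the place of the cutting subunits. Osteoclast formation uses the proteasome, since NF-kappaB signalling below RANK needs degradation of its inhibitor.

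Promoter sequence is shown for the members that carry the core of the antioxidant response element, TGACNNNGC, because factors of the NRF family that drive proteasome genes as a set bind this element. Windows of RefSeq (build GRCm38.p6) from 250 bases before the start were found for 33 of the 40 members and searched on both strands. The core occurred in 5 of the 33 (15.2%), against 11.5% of 27025 genes of the same table. The capitals mark it in these 110-base stretches, which lie at chr14:54617996-54618105 (minus strand) for Psmb5, chr11:70525247-70525356 (plus) for Psmb6, chr14:45329574-45329683 (plus) for Psmc6, chr11:107479278-107479387 (plus) for Psmd12 and chr5:123228080-123228189 (plus) for Psmd9.
Psmb5: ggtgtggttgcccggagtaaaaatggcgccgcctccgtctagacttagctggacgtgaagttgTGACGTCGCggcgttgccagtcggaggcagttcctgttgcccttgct
Psmb6: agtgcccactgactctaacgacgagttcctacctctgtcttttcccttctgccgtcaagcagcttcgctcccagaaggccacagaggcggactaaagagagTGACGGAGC
Psmc6: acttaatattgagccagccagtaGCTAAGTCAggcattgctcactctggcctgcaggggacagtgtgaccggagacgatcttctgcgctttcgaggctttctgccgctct
Psmd12: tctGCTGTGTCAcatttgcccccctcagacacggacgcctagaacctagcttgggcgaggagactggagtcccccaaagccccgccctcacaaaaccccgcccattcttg
Psmd9: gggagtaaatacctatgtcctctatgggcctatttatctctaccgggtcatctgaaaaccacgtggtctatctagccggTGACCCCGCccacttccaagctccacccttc
The match starts 47, 9, 227, 247 and 31 bases before the start in these genes, in this order, and lies on the opposite strand in Psmc6 and Psmd12. Of other elements, the GC box GGGCGG occurred in 19 of the 33 members (57.6%) against 35.4% of all genes. The CCAAT box occurred in 13 (39.4%) against 37.5%. The interferon-type repeat, GAAA followed after 2 bases by GAAA, occurred in 3 (9.09%) against 3.46%, namely in Psmb3, Psmd4 and Psmd9. It occurred in 0 of the 4 interferon-inducible genes left out of the rule. Psme2b-ps was searched through the windows of Psme2 and also lacked it. The searches are separate, so 1 stretch may count under several elements, and a match is a description of letters only. The 5 members with the antioxidant core had a median log2 ratio (RCCS minus control) of -0.33 on these arrays, and the other 28 with a window one of -0.35.

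The members lay close together and somewhat below 0. Values are log2 ratios, RCCS minus control, of the processed signal (the brightness of a spot after the scanner software's trend removal), each array scaled to its own 75th percentile. That percentile was 849 for control and 966 for RCCS. The median of the 40 members was -0.35 (1.28-fold lower), with an interquartile range from -0.52 to -0.27. The median of all measured genes was -0.13, so the members stood at -0.22 relative to it. Of the 40 members, 38 were below 0, where 61.8% of all measured genes were, and 34 were below the median of all genes. Scaled on the spike-in control probes, which raised every ratio by 0.30, 27 were below 0. With loess scaling 26 were below 0, and with quantile normalization 28. The share of all genes below 0 was not computed in these settings. By definition 50% of all genes lie below their own median. Below it were 34 members with spike-in scaling, 26 with loess scaling and 24 with quantile normalization.

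With 1 array per condition there is no test between conditions, no error between cultures, and no replicate check of any difference. In RNA of a whole culture, fewer cells of a kind and less RNA per cell cannot be told apart. The spot error of the scanner software gives a gene with 1 probe a 95% half-width of 0.40, a value the software assigns rather than a measured spread. Among 106 repeatedly printed probes with a signal of at least 100, the SD of the log2 ratio between spots had a median of 0.04, but every member probe was printed once. Where 2 or more probes of a member had signals of at least 1000, their log2 ratios lay a median of 0.10 apart (12 members), against 0.15 for 1916 genes of all kinds. By the software's error, 22 members had an interval wholly below 0, as did 27.7% of all measured genes, and 1 (Psmc6) had one wholly above it, as did 15.8%. Wholly below the median of all genes lay 12 members, against 18.9% of all. Against the median of genes with a signal of at least 10000 on both arrays, 3 intervals lay wholly below and 2 wholly above. The share of all genes was not computed for this comparison, so these counts cannot be set against a background.

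**Figure D1:**
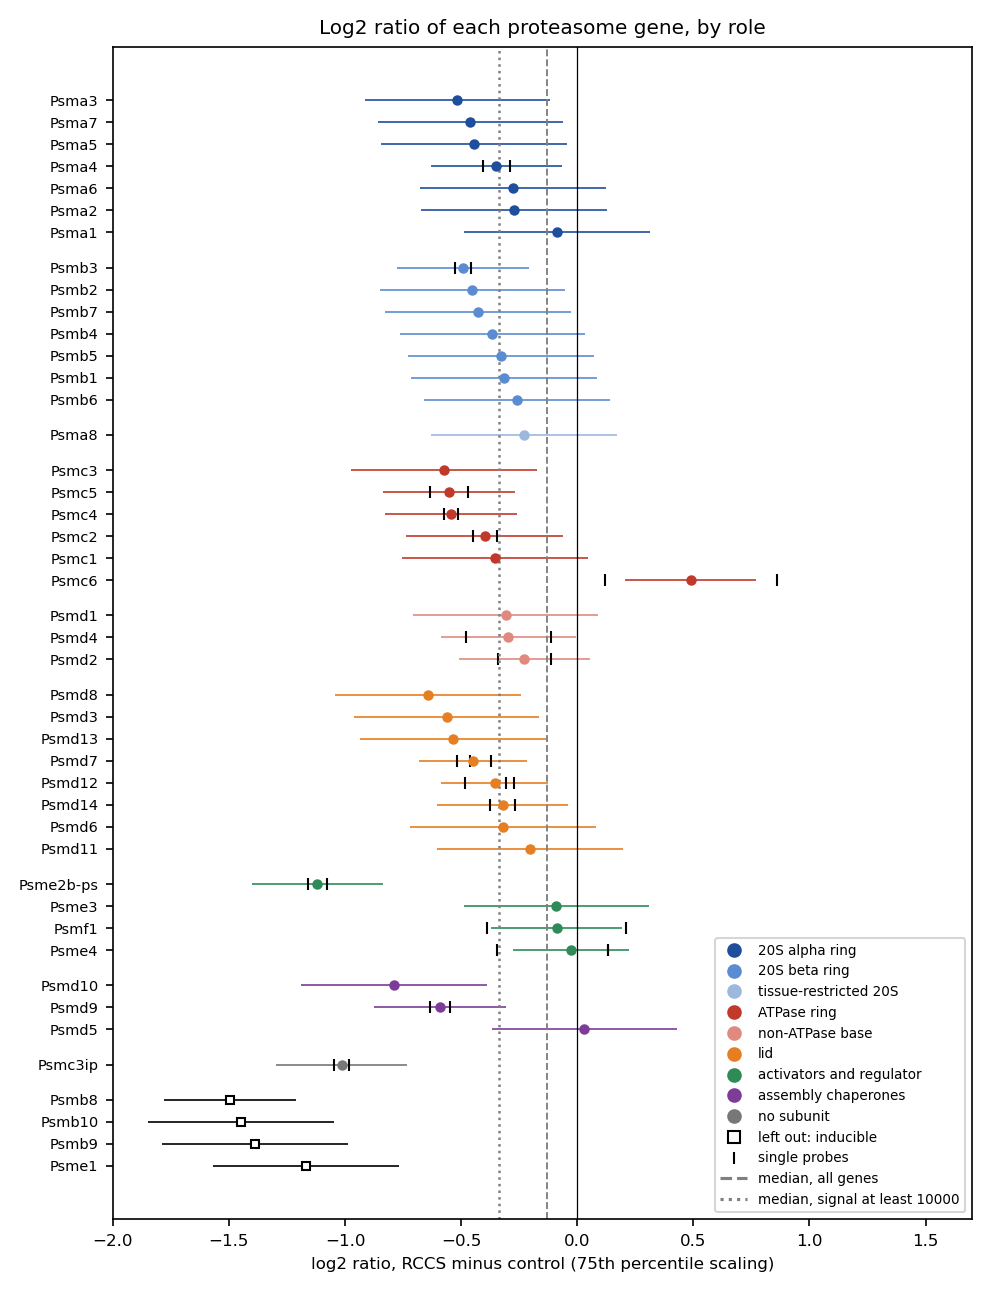
Log2 ratio (x axis, RCCS minus control) of each member, grouped by role, with the 95% interval from spot error as bars, single probes as ticks where a gene has several, and the inducible genes left out of the rule as open squares. Core, base and lid genes other than Psmc6 lie between -0.64 and -0.09, Psme2b-ps at -1.12 and Psmc3ip at -1.01 lie toward the open squares, and Psmc6 is alone at 0.49.

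Brightness matters to how this median reads, since the ratio was lower for brighter genes on these arrays. Genes with a mean signal from 100 to 1000 had a median of -0.03, those from 1000 to 10000 one of -0.15, and those of 10000 or more one of -0.34. Of the members, 26 were in the brightest class, with a median of -0.40 against -0.34 for the 1630 genes there. Set against the 1456 genes with a signal of at least 10000 on both arrays, whose median was -0.34, the median of all members stood at -0.02. The interquartile range was 0.25 for the members and 0.41 for these bright genes, a difference that was not tested. The alternatives that remove a trend with brightness moved the members toward the middle of all genes, to -0.08 with loess scaling and -0.04 with quantile normalization. What part brightness has in the shift was not tested further.

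**Figure D2:**
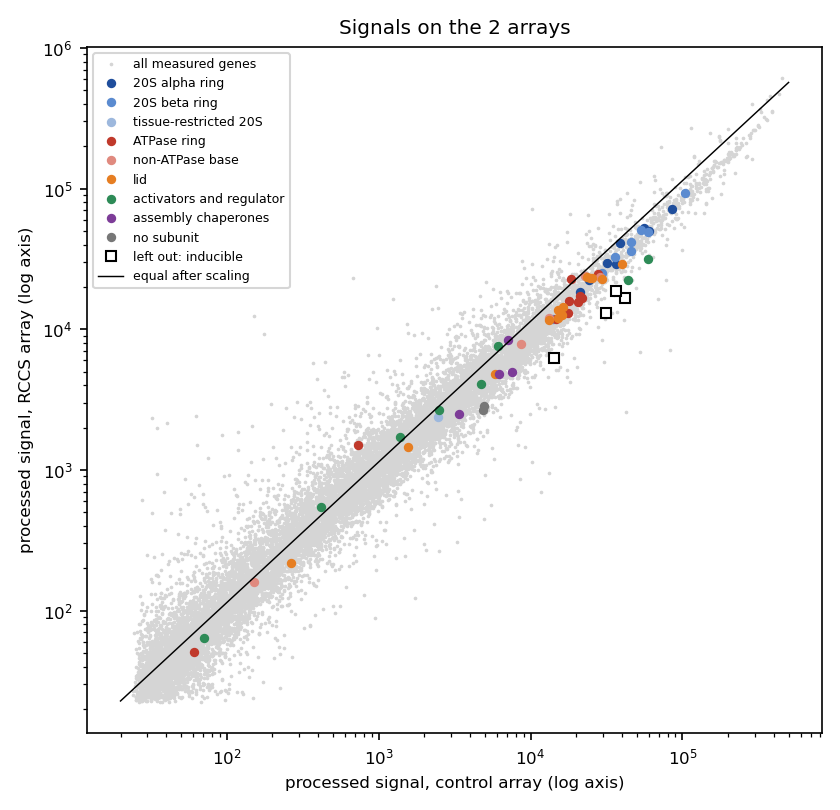
Processed signal for control (x axis) against RCCS (y axis), both log axes, for all measured genes (grey) and the measured probes of the members (coloured by role). The line marks equal signal after scaling. Bright subunit probes run in a narrow band just below the line, together with the grey genes of that brightness.

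A ratio of 2-fold or more toward lower RCCS signal was found for 2 members, against 3.78% of all measured genes, and one toward higher signal for 0, against 3.95%. Those 2 were Psme2b-ps and Psmc3ip, and neither is a subunit of the constitutive 26S particle. At 1.5-fold, 5 members were lower against 14.8% of all genes, the others being Psmd10, Psmd8 and Psmd9, and 0 were higher against 9.72%. At 3-fold there were 0 members either way, against 0.972% of all genes lower and 1.3% higher. With the 75th percentile of measured probes, spike-in scaling, quantile normalization, loess scaling, and normexp with quantile normalization, the 1.5-fold counts were instead 2 or 3 lower and 1 higher. In those 5 settings Psmd8 fell short of 1.5-fold and Psmc6 was past it on the higher side, at 0.60 to 0.79. The share of all genes past 1.5-fold was not computed in these settings, so their counts have no background. As scaled here, the 31 subunits of the 20S core and 19S particle held 0 genes past 2-fold and 1, Psmd8, past 1.5-fold. Their median was -0.35, and their interquartile range was 0.17.

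The 20S core was measured through 14 genes. All 14 were below 0 as scaled here, though 7 of them, Psmb5 and Psmb6 included, took both signs over the alternatives. The median was -0.36, or -0.23 after subtracting that of all genes, with a range from -0.52 to -0.09 and an SD among genes of 0.12. Relative to all genes the core turned to 0.03 with quantile normalization and came to -0.01 with loess scaling. Alpha and beta rings had medians of -0.35 and -0.37, over 7 genes each.

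In the alpha ring, Psma3 was lowest, going from a processed signal of 36801 on the control array to 29262 on the RCCS array, a log2 ratio of -0.52. Psma1 was highest, going from 38625 to 41366, which after scaling is a log2 ratio of -0.09. Psma7, at -0.46, went from 60095 to 49686, and Psma5 from 85359 to 71279 (-0.45). The other alpha genes, Psma2, Psma4 and Psma6, lay between -0.35 and -0.27. Alpha subunits have no cutting site, and they form the gate that the caps open. The range of the 7 values, from -0.52 to -0.09, is close to the half-width of 1 gene's spot error, so these arrays do not resolve their order.

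The subunits that cut lay within the range of the rest of the ring. Psmb5, the chymotrypsin-like subunit, went from 35867 to 32499, a log2 ratio of -0.33 (95% half-width 0.40). Psmb6, the caspase-like subunit, went from 53659 to 50970 (-0.26), the highest of the beta ring. Psmb7, the trypsin-like subunit, went from 29500 to 24947 (-0.43). These ratios differ by less than the spot error of any of them. Among the beta subunits without a cutting site, Psmb3 was lowest at -0.49 in this scaling, with its 2 probes at -0.53 and -0.46. Psmb4 went from 104754 to 92496 (-0.37), and Psmb1 and Psmb2 were at -0.31 and -0.45.

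The inducible counterparts, outside the rule, stood apart from these. Psmb8, which replaces Psmb5, was at -1.49, Psmb9, which replaces Psmb6, at -1.39, and Psmb10, which replaces Psmb7, at -1.45. In a difference of 2 genes on the same arrays, where an array's scaling factor drops out, Psmb8 was lower than Psmb5 by a log2 difference of -1.17 (95% half-width 0.49 from spot error). The difference was -1.13 for Psmb9 against Psmb6 and -1.02 for Psmb10 against Psmb7, each with a half-width of 0.57. Over the 13 alternatives that give these values, the 3 differences ran from -1.23 to -1.02.

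Psma8, a relative of Psma7 used in male germ cells, had a single probe, at 2452 and 2379 (-0.23). The probe was made to a cDNA that the files describe as resembling alpha type 7, and whether it also bound Psma7 transcripts was not tested. Psmb11, the beta subunit of thymic epithelium, was not analysed here.

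The ATPase ring had a median of -0.47 over 6 genes (-0.34 relative to all genes), against -0.40 (-0.27) for the lid. The ring's median was below that of the lid in every setting run except normexp with quantile normalization. There the lid was at -0.16 and the ring at -0.15 relative to all genes. Several of the settings shift all genes alike, so they cannot change this order. The gap was smaller than the spot-error half-widths of these medians, 0.20 for the ring and 0.18 for the lid. The ring was not tested against the lid. Psmc3 went from 21856 to 16683 (-0.58). Psmc5 was at -0.55, with probes at -0.63 and -0.47, and Psmc4 at -0.54, with probes at -0.57 and -0.51. Psmc1 went from 17865 to 15902 (-0.35). Psmc2 was at -0.40; its RefSeq probe went from 27802 to 24862 (-0.35), while a probe on another cDNA was dim, at 61.0 and 50.8 (-0.45). These 5 genes lay between -0.58 and -0.35 and were below 0 under every alternative that gave gene values.

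Psmc6, the remaining ATPase of the ring, was at 0.49 and was the highest of the 40 members in 13 of 14 settings. With the brightest probe of each gene Psme4 was higher. Several of the settings shift all genes alike, so they cannot change the place of Psmc6. Its probe to the RefSeq transcript went from 18415 to 22725, a log2 ratio of 0.12. That is less than the half-width of 0.40 for 1 probe, so the interval of this probe alone spans 0. Its probe to another cDNA record went from 734 to 1515, a ratio of 0.86. The probes lay 0.74 apart, the widest gap of any member, beyond the gene's spot error, so the size of the value rests on the second probe. On the RefSeq probe alone Psmc6 was 0.47 above the median of the 31 subunits, and it was above 0 under every alternative that gave gene values, from 0.12 to 0.79. With 1 array each, whether this gene departs from its ring in other cultures is unknown.

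The non-ATPase subunits of the base, which tie the cap to ubiquitin, were at -0.31 for Psmd1, -0.23 for Psmd2 and -0.30 for Psmd4, of which Psmd4 came above 0 with spike-in scaling, and Psmd2 with spike-in and loess scaling and with quantile normalization, normexp or not. Psmd4 encodes a ubiquitin receptor; its RefSeq probe went from 28886 to 23532 (-0.48), and a dim probe on another sequence, at 152 and 159, was at -0.11. The 2 probes of Psmd2, a scaffold that also docks ubiquitin carriers, were at -0.34 and -0.11.

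All 8 lid genes were below 0 as scaled here, and 7 of them under every alternative that gave gene values, the exception being Psmd11. Their median was -0.40, or -0.27 after subtracting that of all genes, with a range from -0.64 to -0.20. Psmd8 was lowest, going from 39790 to 28974 (1.56-fold lower). Psmd3 went from 29702 to 22869 (-0.56) and Psmd13 from 15253 to 11983 (-0.53). Psmd14, the deubiquitinase that removes the chain, was at -0.32, with probes at -0.38 and -0.27. Psmd11 was highest, at 23668 and 23369 (-0.20); its other probe, to a testis cDNA, was at background on both. Psmd6, Psmd7 and Psmd12 lay between -0.45 and -0.32, and the 3 probes of Psmd12 between -0.49 and -0.27. The SD among lid genes was 0.15, and the medians of lid and core, -0.40 and -0.36, were not tested against each other.

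The activators and the regulator had unlike values. Psme2b-ps, the name the array gives to probes for the beta subunit of PA28, was at -1.12 (2.17-fold lower). It was the lowest of the 40 members in 11 of 14 settings, several of which shift all genes alike and cannot change the order. Psmc3ip was lower with loess scaling and both quantile normalizations. Psme2b-ps came short of 2-fold in the 5 settings named above for 1.5-fold, at -0.98 to -0.78. Its 2 probes went from 44125 to 22448 (-1.16) and from 58955 to 31726 (-1.08). The files list transcripts of both Psme2 and the copy Psme2b for these probes, so the genes cannot be told apart. Psme1, the alpha subunit that assembles with it and was left out by the rule, went from 36811 to 18629 (-1.17). Both are known as interferon-induced genes, and in these data Psme2b-ps stood with the inducible genes rather than with the constitutive ones.

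The other activators lay near 0 and above the median of all genes. Psme3, which forms the nuclear PA28 gamma activator, went from 2498 to 2669 (-0.09). Psme2b-ps was lower than Psme3 by a log2 difference of -1.03 (95% half-width 0.49 from spot error), which ranged from -1.06 to -0.82 over the alternatives. Psme4, which encodes PA200, was at -0.03 over 3 measured probes; the brightest went from 6064 to 7564 (0.13), another from 1374 to 1712 (0.13), and a dim one from 71.4 to 63.9 (-0.34). Psmf1, which encodes the regulator PI31, was at -0.09, with probes at -0.39 (4714 to 4100) and 0.21 (417 to 548), so its direction depends on the probe. The list's median was -0.09, or 0.04 relative to all genes, and with the brightest probe of each gene it was -0.11 relative to all genes.

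Assembly chaperones, which help build the particle and then leave, went to both ends. Psmd10, also known as gankyrin, went from 7604 to 5002 (-0.79, 1.73-fold lower), and Psmd9, at -0.59, had probes at -0.63 and -0.55. Psmd5 went from 7163 to 8321 (0.03) and was, with Psmc6, 1 of the 2 members above 0. All 3 act on the ATPase ring. Over the alternatives Psmd10 ranged from -0.79 to -0.48 and Psmd9 from -0.59 to -0.29, while Psmd5 ranged from 0.03 to 0.34. Chaperones of the core stood on the array under older names that the rule did not take: Psmg1 (named Dscr2) was at -0.55, Psmg2 (Tnfsf5ip1) at -0.50 and Psmg3 (1810042K04Rik) at -0.68.

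Psmc3ip, taken by the rule for its name, encodes a partner of a proteasome ATPase that is known for its role in meiotic recombination and is no subunit. It was 2.02-fold lower, with probes going from 4940 to 2845 (-0.98) and from 4870 to 2678 (-1.05). Without it the median of the 39 other members was -0.35.

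**Figure D3:**
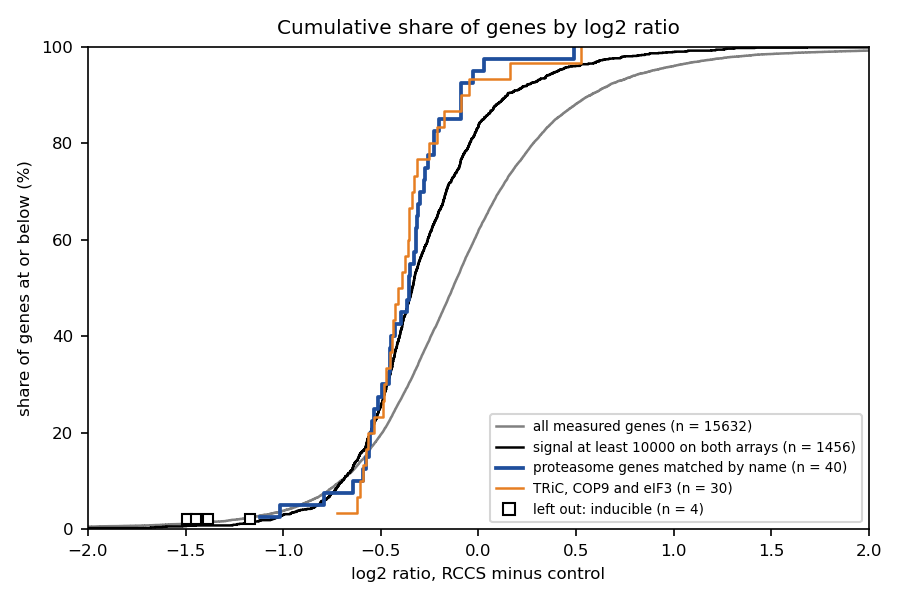
Cumulative share of genes (y axis, percent) by log2 ratio (x axis) for all measured genes, for genes with a signal of at least 10000 on both arrays, for the 40 members and for 30 genes of the complexes TRiC, COP9 and eIF3. The curve of the members crosses 50% at -0.35, beside the bright genes at -0.34, and climbs more steeply, and the open squares of the 4 inducible genes lie between -1.49 and -1.17.

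Other genes of the ubiquitin-proteasome pathway were more scattered than the subunits. Of 30 listed, 29 were measured, with a median of -0.21, an interquartile range of 0.45, and 0 past 2-fold in either direction. All measured genes had an interquartile range of 0.61. It was 0.44 for genes with a mean signal of 10000 or more and 0.65 for those from 100 to 1000. The listed genes had control signals from 166 to 224207, and the part of brightness in their scatter was not tested. Pomp, which matures the core, was at -0.36, the ubiquitin receptor Adrm1 at -0.59, and the deubiquitinases Usp14 and Uchl5 of the particle at -0.42 and -0.47. Uba1, the ubiquitin-activating enzyme (named Ube1x), was at -0.74, with probes at -1.07 and -0.41. The highest were Zfand2a, which went from 874 to 1710 (0.78), and Nfe2l1, at 0.31. Nfe2l1 encodes NRF1, the factor that raises proteasome genes when the proteasome fails; it went from 3205 to 4506. Nfe2l2, which encodes NRF2, was at -0.08.

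Complexes of like make-up gave medians near that of the proteasome. The TRiC chaperonin, a barrel that folds actin and tubulin, was at -0.38 over 8 genes. The COP9 signalosome, a relative of the lid, was at -0.36 over 9 genes, and the translation factor eIF3, another relative of the lid, at -0.43 over 13. Of these 30 genes, 0 were at least 2-fold higher or lower. The proteasome median, -0.35, was therefore not set apart from these complexes, and no test of the difference was possible with 1 array per condition.

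**Figure D4:**
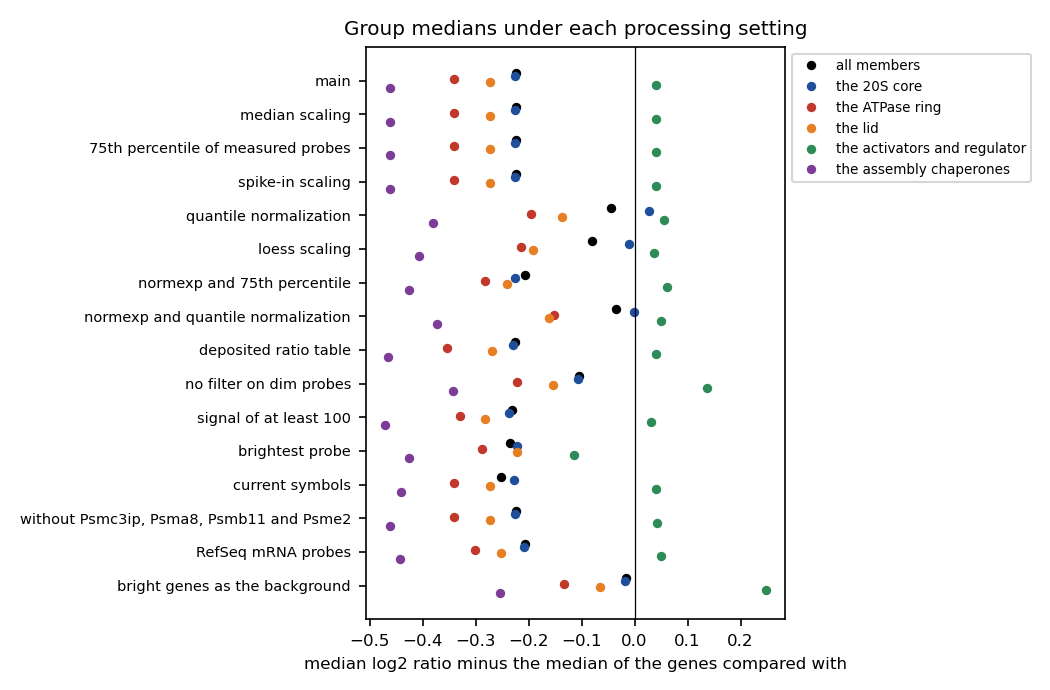
Median log2 ratio of the members and of 5 role groups (x axis, minus the median of all measured genes, or of the bright genes in the last row) under each processing setting (y axis). The core and the whole set come within 0.1 of 0 where a trend with brightness is removed or bright genes are the comparison. The lid does so against bright genes only, at -0.064. The whole set, the ATPase ring, the lid and the chaperones stay below 0 under each setting shown.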

How the data were processed

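RNA of 2 samples of RAW 264.7, 1 labelled control and 1 labelled RCCS, was measured on 1-colour Agilent whole mouse genome arrays. The spot values deposited by the authors are intensities that Agilent Feature Extraction 9.5.3.1 made, with spatial and multiplicative detrending switched on and background correction off, per the file headers. The deposited series table holds a ratio per probe and array; by comparison with the scanner files it equals processed signal over 849 for control and 964 for RCCS. For probe design, the build was not given in the sources used here, and probes carry no coordinates in the text.

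Spots flagged as outliers on either array were left out, spots of a probe averaged, and each array scaled to its 75th percentile; 0 spots were saturated. A probe was measured where at least 50% of its spots were well above background on both arrays, and log2 ratios of measured probes were averaged within a gene, named as in the files. No test between conditions is possible with 1 array per group. Python 3.11.15 and limma 3.58.1 (normexp, offset 50) were used, and the ratio step was tested on simulated data. The planted differences were larger than that of any member and had no trend with brightness, so that check does not cover such a trend. Members, role lists and other lists were chosen with earlier results of these data known. Named were the ends of each role, members past 1.5-fold, the cutting subunits, ATPases and activators. Other members and markers were named after their values were seen. Alternatives covered scaling, normalization, background, filter, probe choice, names and fold. The lists of the other complexes use older symbols where the files do. Most genes of the pathway list are counted but not reported by name here, among them the gene with the lowest log2 ratio.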

Additional observations from a re-analysis of the deposited data

How the results depend on the processing

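Across 13 alternatives, 24 of the 40 members stayed below 0, 2 (Psmc6 and Psmd5) stayed above it, and 14 took both signs. The same count was not made over all measured genes, so these counts have no background to be set against. Of 519 gene values of the members, 34 moved by more than the 95% spot error, and 0 of the values past 2-fold changed sign. The median of all measured genes itself shifted by 0.30 with spike-in scaling, 0.14 with the 75th percentile of measured probes, 0.13 with loess scaling and -0.12 with dim probes kept. The median of all members relative to all genes moved from -0.22 to -0.044 with quantile normalization, -0.080 with loess scaling, -0.036 with normexp and quantile normalization, -0.10 without a filter on dim probes and -0.016 against bright genes, an alternative chosen after seeing the data. The core came to 0.027, -0.011, -0.0019 and -0.018 under the first 3 and the last of these. Against bright genes the ATPase ring came to -0.13 and the lid to -0.064. The count at least 2-fold lower, 2, became 1 (Psme2b-ps) with median scaling, with normexp and the 75th percentile, and with the brightest probe. It became 0 with the 75th percentile of measured probes, spike-in scaling, quantile normalization, loess scaling, normexp and quantile normalization, without Psmc3ip, Psma8, Psmb11 and Psme2, and at 3-fold, and 5 at 1.5-fold. Probes restricted to RefSeq transcripts, also chosen after seeing the data, left 39 members and the same count of 2. For alternatives of scaling, normalization, background, filter, probes or names, the share of all genes at least 2-fold lower was not computed. Those counts therefore have no background to be set against. No paired analysis was possible because each condition has 1 array. Dim probes, with signals under 1000 on either array, were 6 of the 59 measured.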
